A study of Mus musculus with 18 samples.

Results

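The unfolded protein response and the integrated stress response were followed through 39 mouse genes listed by name. All 39 were found among the 18194 genes on the Affymetrix Mouse430_2 array, and all 39 passed the filter on dim genes, which kept 10916 genes. They were covered by 96 probe sets, and the brightest probe set of a gene, by mean log2 signal over the 18 arrays, stood for it. By role they comprised 4 sensors and transcription factors of the unfolded protein response, 8 chaperones and cochaperones, 5 lectin chaperones and disulfide isomerases and 4 genes of ER-associated degradation. The remaining ones were 9 regulators of the integrated stress response, 6 metabolic enzymes downstream of ATF4, and 3 genes of a transporter and a lipoprotein receptor.

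The arrays measured total RNA of TKO, a mouse cell line labelled as telomere dysfunctional and grown in DMEM with fetal bovine serum. The tissue the line came from is not given. Some of the cells expressed p53ER, in which the tumour suppressor p53 is joined to an estrogen receptor and stays inactive until 4-hydroxytamoxifen (4-OHT) is given. The other cells were uninfected. The 6 groups, with 3 arrays each, were p53ER cells after 4 h with 100 nM 4-OHT, p53ER cells after 4 h with vehicle and p53ER cells at 0 h, and uninfected cells after 4 h with 4-OHT, after 4 h with vehicle and at 0 h. The labels name no cells that were infected without p53ER, so effects of the fusion and of infection itself cannot be told apart. The labels do not say whether replicates 1, 2 and 3 of a group were separate cultures, so the p-values cover only the spread among the arrays, and that spread may be technical. In RNA from whole cultures, fewer cells that express a gene and less of its RNA per cell cannot be told apart.

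Proteins that fail to fold in the endoplasmic reticulum (ER) are sensed by IRE1, PERK and ATF6, which through XBP1, ATF4 and cleaved ATF6 raise the transcription of chaperones and of the machinery that removes misfolded proteins. The integrated stress response is the wider pathway around PERK: several kinases, among them GCN2, phosphorylate the translation factor eIF2, which slows translation in general and favours that of ATF4. ATF4 in turn raises genes of amino acid supply, of recovery from the translation block and, through CHOP, of cell death.

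Many chaperone genes share a promoter sequence, the ER stress response element, in which a CCAAT box is followed by CCACG, and which ATF6 binds together with the factor NF-Y. RefSeq promoter windows on GRCm38.p6 were at hand for 34 of the 39 genes, and the 250 bases before each start site were searched on both strands for CCAAT, any 9 bases and CCACG. The element was present in 8 of the 34 genes (23.5%), against 35 of 27025 genes with a window (0.13%). Chaperone genes known to share the element are on the list, so this excess describes the list and is not a result of these arrays. These 8 are chaperones, lectins or a disulfide isomerase, with the exception of Syvn1, whose product is a ubiquitin ligase of the ER membrane. The element and the 10 bases on each side of it are shown because several of the chaperone genes described below have it, among them 4 of the 8 chaperones and cochaperones. The stretches are read 5′ to 3′ along the strand on which CCAAT comes first, capitals mark CCAAT and CCACG, and Hsp90b1 holds the element in 2 places.
Hspa5 (chr2:34772015-34772053, plus strand): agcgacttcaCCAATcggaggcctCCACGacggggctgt
Hsp90b1 (chr10:86705523-86705561, plus strand): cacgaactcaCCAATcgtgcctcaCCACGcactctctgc
Hsp90b1 (chr10:86705628-86705666, minus strand): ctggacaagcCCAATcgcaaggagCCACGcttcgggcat
Calr (chr8:84847065-84847103, plus strand): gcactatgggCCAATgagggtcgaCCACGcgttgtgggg
Canx (chr11:50325790-50325828, minus strand): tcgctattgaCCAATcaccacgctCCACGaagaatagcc
Creld2 (chr15:88819510-88819548, minus strand): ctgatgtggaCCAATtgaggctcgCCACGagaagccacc
Dnajc3 (chr14:118937817-118937855, plus strand): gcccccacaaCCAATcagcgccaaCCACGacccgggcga
Pdia6 (chr12:17266481-17266519, plus strand): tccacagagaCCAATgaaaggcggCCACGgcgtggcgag
Syvn1 (chr19:6046522-6046560, plus strand): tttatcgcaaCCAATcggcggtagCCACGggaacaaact

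In Hspa5 the element ended 47 bases before the start site and in Syvn1 26 bases before it, while in Calr it lay farther away, at 144 to 162 bases. The core of the unfolded protein response element, TGACGTGG, was found in 0 of the 34 genes, against 0.603% of all genes with a window. The C/EBP-ATF response element, TGATGNAA, was found in 4, Asns, Chac1, Herpud1 and Vldlr (11.8%, against 3.91% of all genes). The CCAAT box alone, which is part of the longer element, was present in 25 of the 34 (73.5%, against 37.5%), and CCACG alone in 22 (64.7%, against 31.0%). A match describes the letters of the window and is not a measured binding site.

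Before scaling, the 2% trimmed mean signal of an array ran from 47.5 to 148, so the arrays were scaled to a common mean. The first principal component (23.9% of the variance) set apart 3 arrays: uninfected 0 h replicate 2, p53ER vehicle replicate 1 and p53ER 0 h replicate 3. The second (21.8%) split the arrays by number, with replicate 3 on one side and replicates 1 and 2 on the other. The summed signal of 8 mesenchymal markers was 27730 to 49860 per array, against 156 to 272 for 6 epithelial markers and 108 to 187 for 4 blood markers. Mdm2, the p53 target that encodes the ligase limiting p53, checked the fusion: its log2 signal was 10.21, 10.09 and 11.26 in p53ER cells with 4-OHT, against 6.77, 7.30 and 8.73 with vehicle. The 4-OHT arrays were 7.57-fold above vehicle (log2 change +2.92, SE 0.41, limma adjusted p = 0.0329), and in uninfected cells it differed by -0.27.

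The median standard deviation (SD) of the 39 genes within a group was 0.25 on the log2 scale, against 0.32 for all genes tested, and 10 of the 39 had an SD above that median of all genes. The 39 were also brighter, with a median log2 signal of 8.77, against 6.90 for all genes tested. The part of brightness in their smaller spread was not tested. The steadiest were the abundant chaperone Hspa5 (BiP), with an SD of 0.14, and the calcium-binding lectin Calr, with 0.15. The most variable were Hsp90b1 (GRP94), the ER member of the HSP90 family, with an SD of 0.63, the BiP cochaperone Dnajb9 with 0.50, the degradation factor Herpud1 with 0.45 and the sensor kinase Ern1 (IRE1) with 0.41. Signals of different probe sets depend on the probes, so levels are not compared between single genes.

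In p53ER cells, 4 h with 4-OHT left the stress genes close to their level with vehicle. None of the 39 passed the test, against 2 of all 10916 genes (0.0183%), Mdm2 and the cell death gene Pmaip1, both higher. The median log2 change of the 39 was -0.02, against -0.01 over all genes, and 18 of them had a positive value. For 38 of the 39 the 95% interval of the change lay within 2-fold in either direction, and Hsp90b1 was the one outside it. At an unadjusted p under 0.05, 1 of the 39 passed, against 3.22% of all genes. With the replicate number in the fit, 8 genes passed over the array (0.0733%) and again none of the 39. In simulated data with the spread left after group and replicate number were fitted, the same test recovered 9.2% of genes changed by 0.5 on the log2 scale. It recovered 55% of those changed by 1 and 86% of those changed by 2. The test on the real arrays did not take out the replicate number, so these shares may be too high for it. A change of under 2-fold in a single gene was thus often not detectable with this number of arrays. The plot of changes with 4-OHT shows each gene with its interval, next to Mdm2 and the p53 target Cdkn1a, an inhibitor of the cell cycle, at +2.19 (SE 0.49, limma adjusted p = 0.438, and 0.00817 with the replicate number in the fit).

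**Figure D1:**
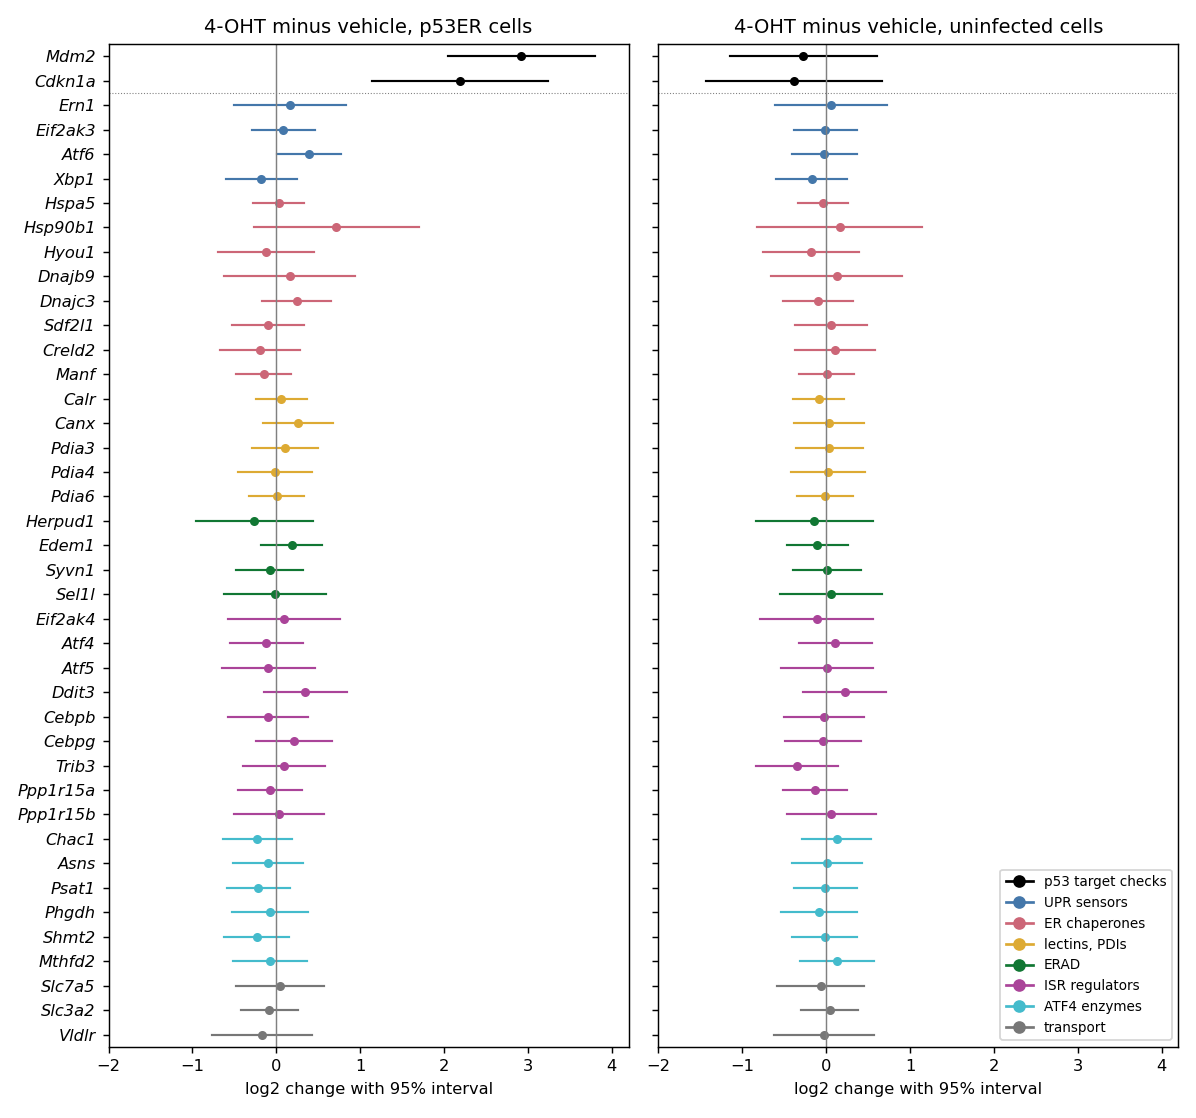
Log2 change with 4-OHT against vehicle in p53ER cells (left) and uninfected cells (right), for Mdm2, Cdkn1a and the 39 genes by role. Points are limma estimates from 3 arrays a group and bars their 95% intervals. Mdm2 stands at +2.92 in p53ER cells, while the 39 genes run from -0.26 for Herpud1 to +0.72 for Hsp90b1.

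Among the sensors, values are given in the order of replicates 1, 2 and 3 here and below. Atf6, which encodes the membrane-bound factor that is cleaved on stress, had log2 signals of 6.61, 6.57 and 6.64 in p53ER cells with 4-OHT, against 5.85, 6.29 and 6.50 with vehicle. The 4-OHT arrays were all higher than the vehicle arrays, and Atf6 was the only one of the 39 of which this was true (3.39% of all genes), while 0 of the 39 lay below (3.98% of all genes). Its log2 change was +0.39 (SE 0.18, 95% interval 0.01 to 0.77) with an unadjusted p of 0.0444 and a limma adjusted p = 0.998, and it was +0.21 without p53ER vehicle replicate 1. The other probe sets of Atf6 differed by -0.01 (SE 0.25) and -0.16 (SE 0.32). Ern1 differed by +0.16 (SE 0.32), Eif2ak3, which encodes PERK, by +0.08 (SE 0.18) and Xbp1, the target of IRE1 splicing, by -0.18 (SE 0.20). Array probe sets read the total RNA of Xbp1 and Atf6, not splicing or cleavage.

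Of the 8 chaperones and cochaperones 4 had a positive value. Hsp90b1 stood at 10.51, 10.38 and 9.89 in p53ER cells with 4-OHT, against 8.62, 10.07 and 9.93 with vehicle. The groups overlapped, and the vehicle mean was set by replicate 1, one of the arrays that lay apart. Its log2 change was +0.72 (SE 0.46, limma adjusted p = 0.998), and +0.26 without that array. Hspa5, whose product BiP also holds the sensors inactive, stood at 11.58, 11.56 and 11.77 with 4-OHT, against 11.54, 11.62 and 11.69 with vehicle. The arrays of both groups were interleaved, and the change of +0.03 (SE 0.14) had a 95% interval of -0.27 to 0.33. Dnajc3, a cochaperone of BiP known as an inhibitor of PERK, differed by +0.24 (SE 0.20), and by +0.09 without p53ER vehicle replicate 1. Its other probe sets differed by +0.40, +0.74, +0.38 and +0.67 (SE 0.42 to 0.43), and none passed over all probe sets. The remaining chaperones and cochaperones ran from -0.20 for Creld2 to +0.16 for Dnajb9. Creld2 was lower with 4-OHT in each same-numbered pair, by -0.20, -0.22 and -0.18.

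Canx, the membrane lectin calnexin, stood at 10.32, 10.25 and 10.70 in p53ER cells with 4-OHT, against 9.94, 10.15 and 10.38 with vehicle. The groups overlapped, and the change was +0.26 (SE 0.20, limma adjusted p = 0.998), and +0.13 without 4-OHT replicate 3. The lectin Calr and the disulfide isomerases Pdia3, Pdia4 and Pdia6, which form and rearrange disulfide bonds, ran from -0.02 to +0.10. In ER-associated degradation, Herpud1, a membrane protein of the retrotranslocation complex, stood at 7.95, 8.32 and 8.37 with 4-OHT, against 8.59, 8.49 and 8.35 with vehicle. Its arrays overlapped in replicate 3, and the change was -0.26 (SE 0.33), and -0.13 without 4-OHT replicate 1. The mannosidase-like Edem1 differed by +0.18, and Sel1l and Syvn1, which form the core ligase of the pathway, by -0.01 and -0.08.

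Among the regulators of the integrated stress response, Ddit3, which encodes the transcription factor CHOP, stood at 7.99, 8.17 and 7.67 in p53ER cells with 4-OHT, against 7.77, 7.68 and 7.34 with vehicle. Each replicate number was higher with 4-OHT, but the groups overlapped. The change was +0.34 (SE 0.23, limma adjusted p = 0.998), it was +0.21 without vehicle replicate 3, and with the replicate number in the fit the unadjusted p was 0.0218 and the adjusted p 0.907. When the signals of both its probe sets were averaged, the change was -0.07. Atf4, whose own RNA is translated when eIF2 is phosphorylated, differed by -0.12 (SE 0.21). The pseudokinase gene Trib3, a target of CHOP and ATF4, differed by +0.10 (SE 0.23), and Ppp1r15a (GADD34), which brings a phosphatase to eIF2, by -0.07 (SE 0.18).

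All 6 enzyme genes downstream of ATF4 had a negative value with 4-OHT, with a median of -0.15, and none passed the test. They ran from -0.24 for Shmt2, of mitochondrial one-carbon metabolism, to -0.07 for Mthfd2 of the same pathway, with Chac1, which degrades glutathione, at -0.23, the serine synthesis genes Psat1 and Phgdh at -0.21 and -0.08, and asparagine synthetase, Asns, at -0.10. Shmt2 stood at 9.02, 9.16 and 8.98 with 4-OHT, against 9.72, 9.17 and 8.97 with vehicle. Replicates 2 and 3 were level, the vehicle value of replicate 1, the array that lay apart, was the high one, and without it the change was -0.02. Chac1 was lower with 4-OHT in each same-numbered pair, by -0.26, -0.27 and -0.15. Of 31 alternative analyses, 27 gave 0 positive values among the 6 genes, and up to 3 were positive in the others. Many of the alternatives, such as leaving out an array of another group or a plain variance prior, cannot change these values. The tally is therefore not read as support for a fall. The median of the 6 lay between -0.32 and 0.00 over these analyses, and it was at 0.00 without the 3 arrays that lay apart and with the replicate number in the fit. Of all 39 genes, 4 were higher and 5 lower with 4-OHT in each of the 3 pairs, and 30 were mixed. The share of all genes with the same sign in every pair was not computed. Agreement over the pairs, here or in single genes, is therefore not read as particular to the 39. The transporter subunits Slc7a5 and Slc3a2, which together import large neutral amino acids, differed by +0.04 and -0.08. The lipoprotein receptor gene Vldlr stood at 5.82, 6.12 and 4.81 with 4-OHT, against 5.69, 5.72 and 5.84 with vehicle, a wide spread around a change of -0.17 (SE 0.28), which turned to +0.21 without 4-OHT replicate 3.

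Of 80 further genes of these pathways that were tested, 0 passed in p53ER cells with 4-OHT against vehicle. Of 16 other folding and redox genes 7 had a positive value, of 24 other quality control and transport genes 10, and of 31 other ATF4 targets and regulators 11. The highest value was that of Sesn2, a stress-induced regulator of the mTORC1 pathway that is also a known p53 target, at +0.71 (SE 0.35), and it stood at +0.55 (SE 0.35) in uninfected cells. In the same list Atf3, a stress-induced transcription factor downstream of ATF4, stood at +0.53 (SE 0.50). In quality control and transport Mbtps2, a protease that cleaves ATF6, stood at +0.58 (SE 0.41) and Creb3l1, a membrane-bound relative of ATF6, at +0.36 (SE 0.22). In folding and redox the peroxiredoxin Prdx4 stood at -0.27 (SE 0.23) and the prolyl isomerase Fkbp2 at -0.18 (SE 0.24). Of 9 genes of eIF2 and its regulators, Eif2s2, which encodes the beta subunit of eIF2, stood at +0.54 (SE 0.46) and Eif2b4, an exchange factor subunit, at -0.31 (SE 0.24).

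Among the genes with a promoter window, 6 of the 8 with the ER stress response element had a positive change in p53ER cells with 4-OHT, with a median of +0.04 and a range of -0.20 to 0.72. Of the 26 without it 9 were positive, with a median of -0.08, and over all genes tested 48.1% were positive. Among the genes with the element, Hsp90b1, Canx and Dnajc3 had the largest changes. They read low on p53ER vehicle replicate 1, which lay apart, by -1.38, -0.32 and -0.46 against the mean of the other 2 arrays of its group. Pdia6 counted as positive at +0.0025. None of either set passed the test.

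Uninfected cells showed the same genes under 4-OHT without the fusion. None of the 39 passed, and neither did any of the 10916 genes (0%), with 84 at an unadjusted p under 0.05. The median change of the 39 was -0.01, with 19 positive. Calr was the one gene whose 3 arrays with 4-OHT all lay below those with vehicle (1.91% of all genes), at a change of -0.08 (SE 0.14), and 0 of the 39 lay above (2.38% of all genes). Trib3 stood at 6.41, 6.47 and 6.03 with 4-OHT, against 6.997, 6.53 and 6.43 with vehicle. Every replicate number was lower with 4-OHT and the groups overlapped, at a change of -0.35 (SE 0.23, limma adjusted p = 1.00), and -0.18 without vehicle replicate 1.

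The difference between the 4-OHT effects, p53ER minus uninfected, was tested directly. None of the 39 passed, as for all genes (0%), and 170 genes had an unadjusted p under 0.05. It ran from -0.35 for Chac1 to +0.56 (SE 0.65) for Hsp90b1 and was +0.45 (SE 0.33) for Trib3 and +0.41 (SE 0.26) for Atf6, all with a limma adjusted p = 1.00. Without p53ER vehicle replicate 1, an array that lay apart, it was +0.10 for Hsp90b1 and +0.23 for Atf6, and without uninfected vehicle replicate 1 it was +0.27 for Trib3. The 95% interval lay within 2-fold for 33 of the 39 genes, and for the other 6 it reached beyond 2-fold.

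The plot of signals by array shows Atf6, Hsp90b1, Hspa5, Atf4, Ddit3 and Trib3 in all 6 groups. Ddit3 had a lower value on replicate 3 than on replicates 1 and 2 in each group. Hsp90b1 lay far below the rest of its group on the 3 arrays that lay apart.

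**Figure D2:**
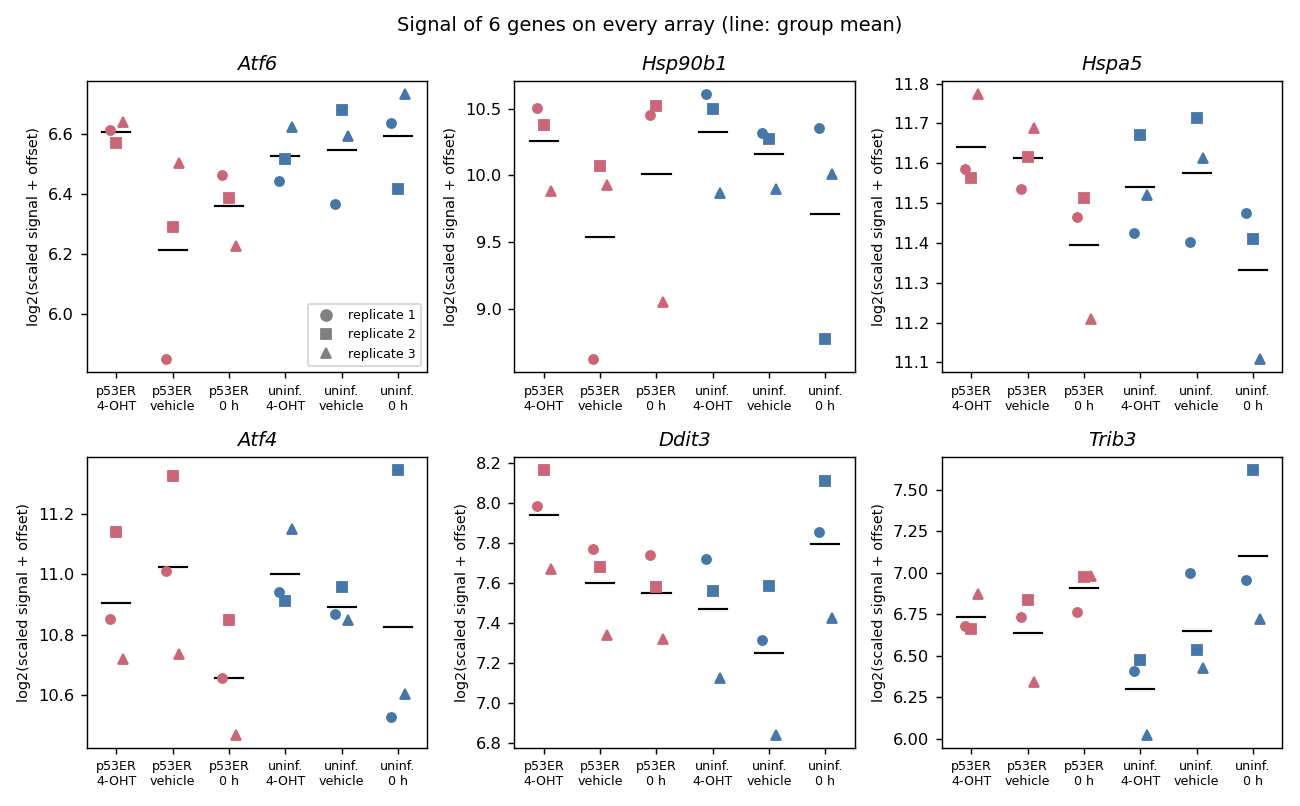
Log2 signal of 6 genes on each of the 18 arrays, with the groups of p53ER cells before those of uninfected cells and 4-OHT before vehicle and 0 h. Each point is 1 array, its shape gives the replicate number, and lines are group means. Hsp90b1 reads 8.62 to 9.05 on the 3 arrays apart and 9.87 to 10.61 on all others.

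Setting the p53ER 4-OHT arrays against 0 h, a comparison that shares them with the one against vehicle, put no gene of the 39 past the threshold (0.0183% of all genes). Hspa5 stood at 11.58, 11.56 and 11.77 with 4-OHT, against 11.47, 11.51 and 11.21 at 0 h, and Atf6 at 6.61, 6.57 and 6.64, against 6.46, 6.39 and 6.23. Both had all 3 arrays with 4-OHT above all 3 at 0 h (4.56% of all genes), at changes of +0.24 (SE 0.14) and +0.25 (SE 0.18), which were +0.15 and +0.18 without p53ER 0 h replicate 3, an array that lay apart. Ddit3 differed by +0.39 (SE 0.23, limma adjusted p = 0.999, and 0.430 with the replicate number in the fit) and Vldlr by -0.59 (SE 0.28). Without 4-OHT replicate 3, its lowest array, Vldlr differed by -0.20.

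Vehicle against 0 h measured 4 h in culture without 4-OHT, together with the addition of vehicle. The labels name no vehicle at 0 h, so time and vehicle cannot be told apart. In p53ER cells none of the 39 passed (0% of all genes, 333 genes at an unadjusted p under 0.05). Hspa5 lay above on all arrays, at +0.22 (SE 0.14, and +0.12 without 0 h replicate 3), as did 2.4% of all genes, while Vldlr at -0.42 (SE 0.28) and Eif2ak4, which encodes the amino acid sensor GCN2, at -0.41 (SE 0.32) lay below (3.62% of all genes). In uninfected cells none passed either (0% of all genes, 616 at an unadjusted p under 0.05). Canx at +0.38, Ern1 at +0.35 and Eif2ak3 at +0.16 lay above on all arrays (4.17% of all genes). Canx rested on 0 h replicate 2, an array that lay apart, and was at +0.10 without it. Sdf2l1, a component of the BiP complex, at -0.37 and Pdia4 at -0.12 lay below (7.29% of all genes). Ddit3 differed by -0.55 (SE 0.23, unadjusted p 0.0312, limma adjusted p = 0.829), at 7.32, 7.58 and 6.84 with vehicle, against 7.85, 8.11 and 7.42 at 0 h. Each replicate number was lower with vehicle, the groups overlapped, and the change was -0.35 without vehicle replicate 3.

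All 12 arrays at 4 h were then set against all 6 at 0 h, with both cell types and treatments weighted equally. Every 4 h array had vehicle or 4-OHT and the 0 h arrays are labelled with neither, so here too time and this addition cannot be told apart. None of the 39 passed, against 0.0183% of all genes, nor did any with the replicate number in the fit, when 65 genes passed over the array (0.595%). The 95% interval lay within 2-fold for all 39 genes. At an unadjusted p under 0.05 there were 3 of the 39, against 9.16% of all genes: Trib3 and Vldlr lower at 4 h, and Hspa5 higher.

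Trib3 ran from 6.03 to 6.997 at 4 h with a median of 6.60, against 6.72 to 7.62 with a median of 6.97 at 0 h. Its ranges overlapped, and the change was -0.42 (SE 0.14, limma adjusted p = 0.399, and 0.178 to 0.839 over the alternatives). The direction depends on the probe set, since the other one of Trib3 differed by +0.12 (SE 0.27). By group its mean was 6.74 with 4-OHT and 6.64 with vehicle, against 6.91 at 0 h, in p53ER cells, and 6.30 with 4-OHT and 6.65 with vehicle, against 7.10 at 0 h, in uninfected cells. Hspa5 ran from 11.40 to 11.77 at 4 h with a median of 11.60, against 11.11 to 11.51 with a median of 11.44 at 0 h. The change was +0.23 (SE 0.09, limma adjusted p = 0.453), between +0.10 and +0.26 over the alternatives. Its group means were 11.64 and 11.61 with 4-OHT and with vehicle, against 11.40 at 0 h, in p53ER cells, and 11.54 and 11.58, against 11.33 at 0 h, in uninfected cells. The mean was therefore higher at 4 h in each of the 4 groups sampled at 4 h than at 0 h of its own cell type, and groups of 1 cell type share their 0 h arrays.

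Vldlr ran from 4.81 to 6.12 at 4 h with a median of 5.61, against 5.51 to 6.22 with a median of 5.93 at 0 h (change -0.38, SE 0.17, limma adjusted p = 0.534). Ern1 ran from 5.97 to 7.49 at 4 h with a median of 6.60, against 6.08 to 6.91 with a median of 6.37 at 0 h (change +0.20, SE 0.19, and +0.10 without p53ER 4-OHT replicate 3). Canx ran from 9.94 to 10.70 with a median of 10.45, against 9.55 to 10.54 with a median of 10.38 (change +0.13, SE 0.12). Canx turned to -0.01 without uninfected 0 h replicate 2 alone, and to -0.02 without the 3 arrays that lay apart. Syvn1 ran from 7.29 to 8.12 at 4 h with a median of 7.66, against 7.57 to 7.94 with a median of 7.80 at 0 h (change -0.15, SE 0.12). Mthfd2 ran from 9.09 to 9.79 with a median of 9.28, against 9.04 to 9.84 with a median of 9.46 (change -0.10, SE 0.13, and -0.02 without the 3 arrays). The ranges of all these genes overlapped between the times. Slc7a5 differed by +0.28 (SE 0.15) and Atf4 by +0.21 (SE 0.13). Hsp90b1 differed by +0.21 (SE 0.28), and by -0.15 without the 3 arrays that lay apart, 2 of which are 0 h arrays.

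Without 4-OHT, p53ER cells and uninfected cells were compared over vehicle and 0 h together, 6 arrays against 6. None of the 39 passed, against 0.0183% of all genes, and 25 of the 39 had a positive value, with a median of +0.05. Over all genes tested 49.5% had a positive value and the median was -0.00. At an unadjusted p under 0.05 there were 4 of the 39, against 3.43% of all genes. Eif2ak3 (PERK) ran from 6.80 to 7.48 with a median of 7.15 in p53ER cells, against 6.64 to 6.88 with a median of 6.84 in uninfected cells. The ranges overlapped, and the change was +0.37 (SE 0.13, limma adjusted p = 0.999). Atf6 ran from 5.85 to 6.50 with a median of 6.34 in p53ER cells, against 6.37 to 6.73 with a median of 6.61 in uninfected cells, a change of -0.28 (SE 0.13). Its lowest value, 5.85, was that of p53ER vehicle replicate 1, an array that lay apart. The transcription factor gene Cebpb differed by +0.35 (SE 0.16) and Pdia4 by +0.31 (SE 0.15). Without the 3 arrays that lay apart, 2 of them from p53ER cells, Eif2ak3 differed by +0.28, Cebpb by +0.14 and Pdia4 by +0.27, and without p53ER vehicle replicate 3 alone Pdia4 differed by +0.17. The 4 genes of ER-associated degradation were all positive, between +0.04 for Sel1l and +0.47 (SE 0.23) for Herpud1. Herpud1 stood at +0.25 without uninfected 0 h replicate 1, Sel1l turned to -0.07 without uninfected vehicle replicate 3, and 2 to 4 of the 4 genes were positive over the alternatives.

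The comparison by replicate number was the one in which stress genes passed the test. Replicate 3 of all groups was compared with replicates 1 and 2, within groups, and 11 of the 39 genes passed the test (28.2%), against 2312 of all 10916 genes (21.2%). Of the 11, 4 were higher on replicate 3 (10.6% of all genes) and 7 were lower (10.6% of all genes). The labels do not say what a replicate number stands for. With 21.2% of the whole array past the threshold, the share among the stress genes is near the background and is not particular to them. The p53 targets Mdm2 and Cdkn1a were also higher on replicate 3, by +0.72 and +0.96 over both cell types. The replicate 3 difference was larger in p53ER than in uninfected cells, by +0.68 (SE 0.29) for Mdm2 and +0.96 (SE 0.26) for Cdkn1a. Neither passed the test (limma adjusted p = 0.419 and 0.118). For the estrogen receptor gene Esr1 it was larger in p53ER cells by +3.13 (SE 0.46, limma adjusted p = 0.00594).

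A sign of RNA quality and markers of other cell types moved with the replicate number as well. The 3'/5' signal ratio of the Gapdh control probe sets was 0.860 to 0.950 on the 6 arrays of replicate 3, against 0.782 to 0.841 on the 12 others, without overlap, while that of actin was 1.00 to 1.13, against 1.05 to 1.22. The summed signal of 4 muscle markers was 186.5 to 275.6 on replicate 3, against 278.2 to 424.8 on replicates 1 and 2, in p53ER cells, and 164.5 to 169.5, against 554.3 to 773.4, in uninfected cells. Of the 3 muscle markers tested 1 passed, the skeletal actin gene Acta1 at -1.62 (SE 0.27, limma adjusted p = 0.000946), while Ckm and Des differed by -0.07 and -0.32 and Myog was too dim to be tested. Of the 8 mesenchymal markers 3 passed, all lower on replicate 3: Pdgfrb at -1.54, Col1a1 at -0.95 and Thy1 at -0.92. The summed signals of the epithelial, blood, endothelial and neural markers overlapped between the replicate numbers, but single epithelial, blood and endothelial markers passed. Epcam at -0.60, Csf1r at -0.44 and Kdr at -0.48 were lower on replicate 3, and Cd74 at +0.62 was higher. No neural marker passed, and among the mesenchymal markers Dcn differed by +0.48 without passing. The part of RNA quality and of cell composition in the calls below was not tested.

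The 7 genes lower on replicate 3 were Atf5, Ddit3 and Ppp1r15b of the integrated stress response, Sel1l of degradation, Pdia3 and Pdia6 of folding and the transcription factor gene Xbp1 of the unfolded protein response. Sel1l, the adaptor of the SYVN1 ligase, ran from 6.91 to 7.39 on replicate 3 with a median of 7.25, against 7.43 to 7.94 with a median of 7.80 on replicates 1 and 2. No array of replicate 3 reached the others, and the change was -0.56 (SE 0.10, limma adjusted p = 0.000852). Atf5, a transcription factor translated like ATF4 when eIF2 is phosphorylated, ran from 8.78 to 9.37 with a median of 8.9999, against 9.09 to 9.93 with a median of 9.56 (change -0.52, SE 0.08, limma adjusted p = 0.000449). Ddit3 (CHOP) ran from 6.84 to 7.67 with a median of 7.33, against 7.32 to 8.17 with a median of 7.73 (change -0.47, SE 0.08, limma adjusted p = 0.000792). The ranges of Atf5 and Ddit3 overlapped across groups, but in each of the 6 groups replicate 3 was below both others.

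Ppp1r15b, which keeps eIF2 dephosphorylated in unstressed cells, ran from 7.26 to 8.01 on replicate 3 with a median of 7.76, against 7.87 to 8.51 with a median of 8.13 on replicates 1 and 2 (change -0.43, SE 0.11, limma adjusted p = 0.0110). Pdia3, the isomerase that works with the lectin chaperones, ran from 10.47 to 11.03 with a median of 10.82, against 10.93 to 11.26 with a median of 11.10 (change -0.31, SE 0.08, limma adjusted p = 0.0111). Pdia6 ran from 9.42 to 9.68 with a median of 9.57, against 9.65 to 10.00 with a median of 9.81. Xbp1 ran from 8.92 to 9.52 with a median of 9.30, against 9.13 to 9.90 with a median of 9.49. The changes of these last genes, -0.23 (SE 0.07, limma adjusted p = 0.0314) and -0.28 (SE 0.09, limma adjusted p = 0.0363), were the smallest of the lower ones.

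Higher on replicate 3 were a transporter, an enzyme, a sensor and an isomerase. Slc7a5 ran from 8.72 to 9.38 on replicate 3 with a median of 9.04, against 8.16 to 8.90 with a median of 8.64 on replicates 1 and 2 (change +0.44, SE 0.10, limma adjusted p = 0.00402). Mthfd2 ran from 9.37 to 9.84 with a median of 9.57, against 9.04 to 9.64 with a median of 9.22 (change +0.37, SE 0.08, limma adjusted p = 0.00446). In both genes replicate 3 was above both others in each of the 6 groups. Ern1 (IRE1) ran from 6.31 to 7.49 with a median of 6.97, against 5.97 to 6.69 with a median of 6.41 (change +0.51, SE 0.15, limma adjusted p = 0.0220). Pdia4 ran from 7.38 to 8.34 with a median of 7.78, against 7.34 to 7.73 with a median of 7.46 (change +0.31, SE 0.10, limma adjusted p = 0.0406), and without p53ER vehicle replicate 3 it differed by +0.20 (limma adjusted p = 0.145).

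Counted by group, replicate 3 was below both others in all 6 groups for Sel1l, Pdia3, Atf5 and Ddit3, 4 of the 39 (5.32% of all genes), and above both in all 6 for Slc7a5 and Mthfd2, 2 of the 39 (5.21% of all genes). Ppp1r15b and Pdia6 were below in 5 groups and Xbp1 in 4, while Pdia4 was above in 5 and Ern1 in 4. Of the chaperones and cochaperones 0 of 8 passed, with Dnajb9 at -0.48 (SE 0.20, limma adjusted p = 0.105), at 7.04 to 7.56 with a median of 7.24 on replicate 3, against 6.41 to 8.10 with a median of 7.91 on replicates 1 and 2. All 9 regulators of the integrated stress response had a negative value, with a median of -0.21, and 3 of the 9 passed (33.3%). Over all genes tested 21.2% passed, 49.8% had a positive value and the median was -0.00, and the median of the 39 was -0.06.

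**Figure D3:**
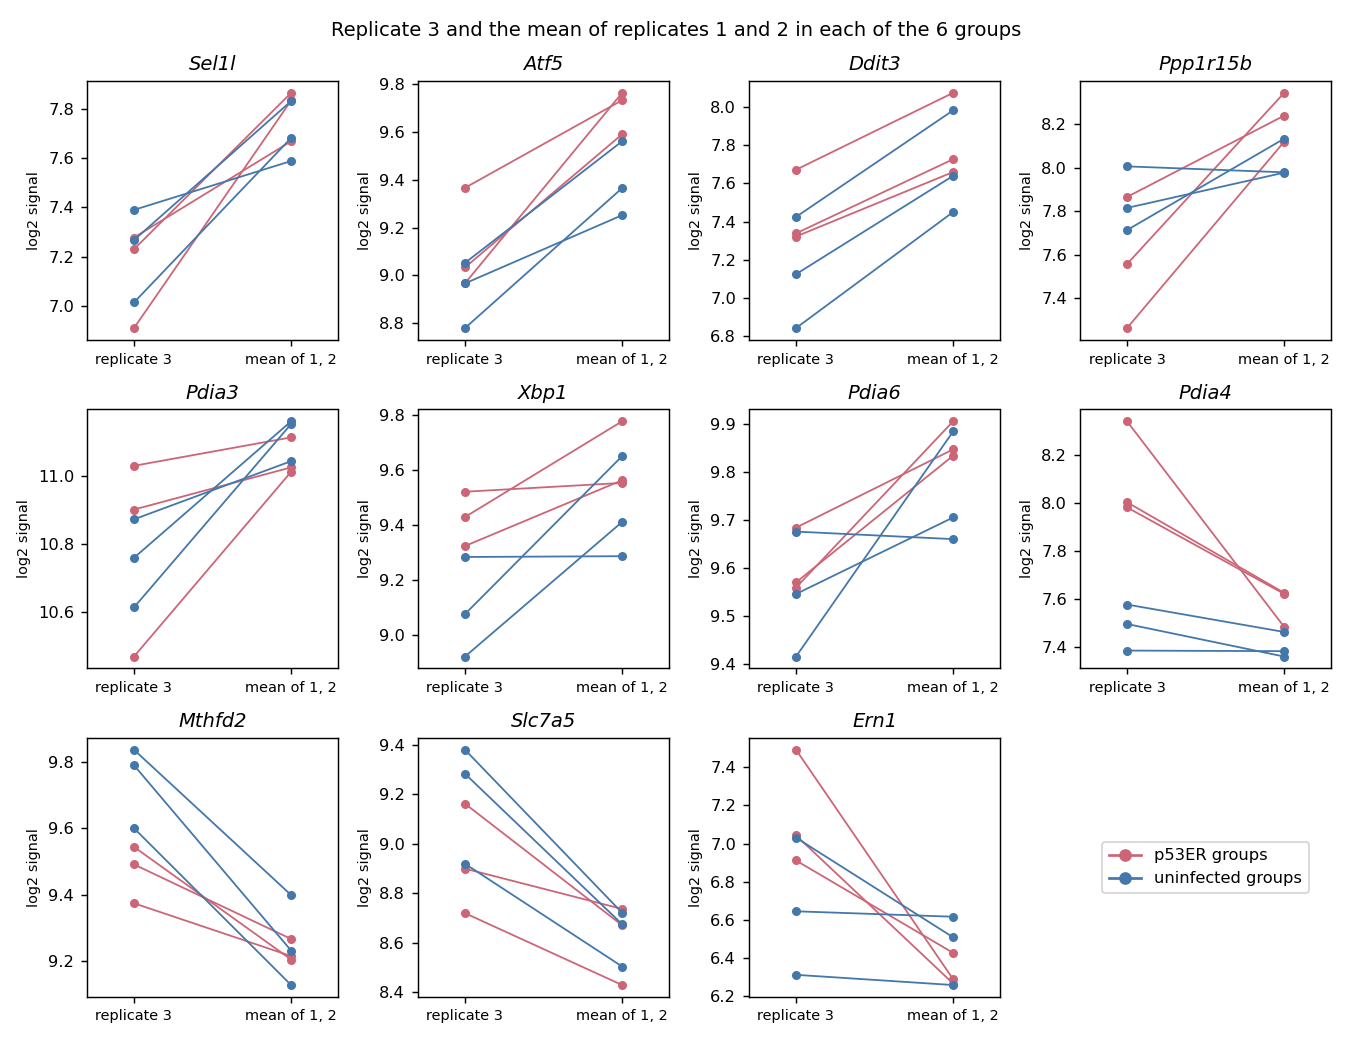
Log2 signal on replicate 3 (left of each panel) and the mean of replicates 1 and 2 (right), joined by a line for each of the 6 groups, for the 11 genes that passed the test between replicate numbers. Red lines are p53ER groups and blue lines uninfected groups. Sel1l, Atf5, Ddit3 and Pdia3 are lower and Slc7a5 and Mthfd2 higher on replicate 3 in all 6 groups.

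The windows before the start sites of Sel1l, the gene with the largest change among the 7 lower ones, and Ddit3, of the integrated stress response, are shown because neither holds the full ER stress response element. Both are RefSeq windows on GRCm38.p6, 250 bases ending at the base before the start site, 5′ to 3′ along the gene's strand. Capitals mark every CCAAT or CCACG on either strand, so that ATTGG and CGTGG are the same sequences on the other strand.
Sel1l (chr12:91849158-91849407, minus strand): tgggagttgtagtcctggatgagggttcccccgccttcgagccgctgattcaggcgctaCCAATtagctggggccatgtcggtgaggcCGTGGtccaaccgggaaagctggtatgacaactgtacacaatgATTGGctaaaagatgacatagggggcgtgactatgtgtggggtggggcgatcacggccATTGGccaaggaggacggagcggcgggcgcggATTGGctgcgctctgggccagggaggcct
Ddit3 (chr10:127290543-127290792, plus strand): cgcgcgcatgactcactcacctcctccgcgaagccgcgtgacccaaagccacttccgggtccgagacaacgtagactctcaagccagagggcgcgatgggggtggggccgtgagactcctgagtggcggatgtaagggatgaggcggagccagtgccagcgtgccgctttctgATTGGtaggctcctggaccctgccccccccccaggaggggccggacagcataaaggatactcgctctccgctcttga

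Sel1l thus has CCAAT and CCACG without the spacing of the element, and Ddit3 has 1 CCAAT box. Of the 8 genes with the element, 1 passed between replicate numbers, Pdia6, and of the 26 without it 8 passed, against 21.2% of all genes tested. Whether these shares differ was not tested.

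The heat map of deviations from the group means places replicate 3 of the 6 groups side by side. Sel1l, Atf5, Ddit3 and Pdia3 are low and Slc7a5 and Mthfd2 are high along that block, while Hsp90b1 and Dnajb9 are low on single arrays of every replicate number.

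**Figure D4:**
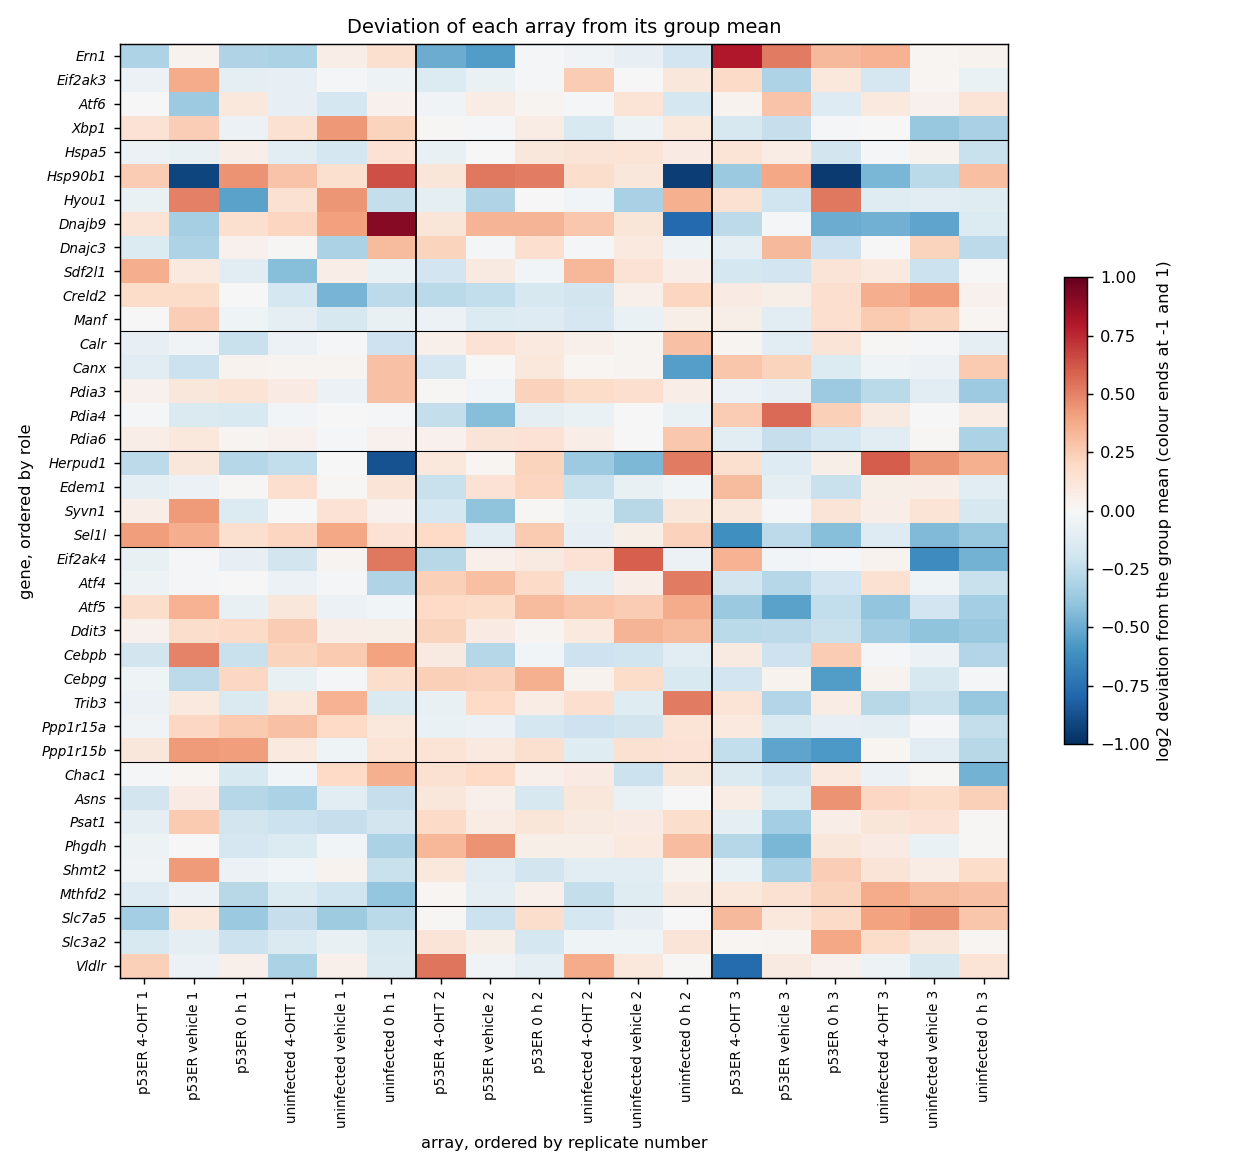
Deviation of each array from its group mean (log2) for the 39 genes, with the 18 arrays ordered by replicate number. Blue is below and red above the group mean. The block of replicate 3 is blue for Sel1l, Atf5 and Ddit3 and red for Slc7a5 and Mthfd2.

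Other probe sets of the same genes were read as a check. The 11 genes had 11 further probe sets above the filter, of which 10 had the same sign between replicate numbers and 4 passed over all probe sets. The 4 other probe sets of Sel1l differed by -0.33, -0.56, -0.54 and -0.86, and the second one of Mthfd2 by +0.39. The exception was Ern1, whose second probe set differed by -0.28 (SE 0.20), so the direction of Ern1 depends on the probe set. The second probe set of Pdia3 was dim (mean log2 signal 5.29) and differed by -0.00.

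Of the 80 further pathway genes, 25 passed between replicate numbers (31.2%), 18 higher and 7 lower on replicate 3, against 21.2% of all genes tested, 10.6% higher and 10.6% lower. Of 31 other ATF4 targets and regulators 10 were higher and 3 lower, with the cystine transporter Slc7a11 at +1.17 (SE 0.25), the angiogenic factor Vegfa at +1.17 (SE 0.13), the cysteine synthesis gene Cth at +1.01 (SE 0.13) and the transcription factor Jdp2 at -0.65 (SE 0.14). In quality control and transport 5 of 24 were higher and 1 lower, among them the translocon genes Sec61a1 at +0.57 and Sec61b at +0.35, the ATF6 relative Atf6b at +0.55 and the membrane-bound transcription factor Creb3l2 at +0.30. In folding and redox 1 of 16 was higher, the prolyl isomerase Ppib at +0.51, and 3 were lower, the oxidase Ero1a at -0.46, Pdia5 at -0.37 and the cochaperone Dnajb11 at -0.36. Of 9 genes of eIF2 and its regulators 2 were higher, the exchange factor subunits Eif2b3 at +0.39 and Eif2b5 at +0.32.

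Whether the replicate 3 difference itself differed between p53ER and uninfected cells was tested after the values had been seen. Over the array 97 genes passed (0.889%), and none of the 39 did. At an unadjusted p under 0.05 there were 3 of the 39, against 10.8% of all genes: Ern1 at +0.62 (SE 0.26), Pdia4 at +0.45 (SE 0.17) and Ppp1r15b at -0.49 (SE 0.18), p53ER minus uninfected. Pdia4 averaged 8.11 on replicate 3 and 7.58 on replicates 1 and 2 in p53ER cells, and 7.49 and 7.40 in uninfected cells.

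The 3 arrays that lay apart on the first component shared part of their pattern among the stress genes. Each was set against the mean of the other 2 arrays of its group, with no test. Hsp90b1 was lower by a similar amount on all of them: -1.38 for p53ER vehicle replicate 1, -1.44 for p53ER 0 h replicate 3 and -1.42 for uninfected 0 h replicate 2. Dnajb9 averaged -0.80, the transcription factor gene Cebpg -0.48, Canx -0.45 and Atf6 -0.34, so that 5 of the 39 lay below both other arrays of the group on all 3 (12.7% of all genes). Above both on all 3 were 6 of the 39 (9.8% of all genes): the HSP70 relative Hyou1 at +0.70, Syvn1 at +0.33, Eif2ak3 at +0.29, the secreted proteins Creld2 at +0.28 and Manf at +0.24, and Sdf2l1 at +0.15. Genes with the ER stress response element thus stood on both sides, with Hsp90b1 and Canx below and Syvn1 and Creld2 above. The shares, 12.8% of the 39 below and 15.4% above, are near those of all genes. They are not read as particular to the stress genes. The 3'/5' signal ratio of the actin control probe sets was 1.08 to 1.10 on these arrays, within the 1.00 to 1.22 of all arrays, and that of Gapdh was 0.782 to 0.949, against 0.782 to 0.950. The part of RNA quality in the pattern was not tested.

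**Figure D5:**
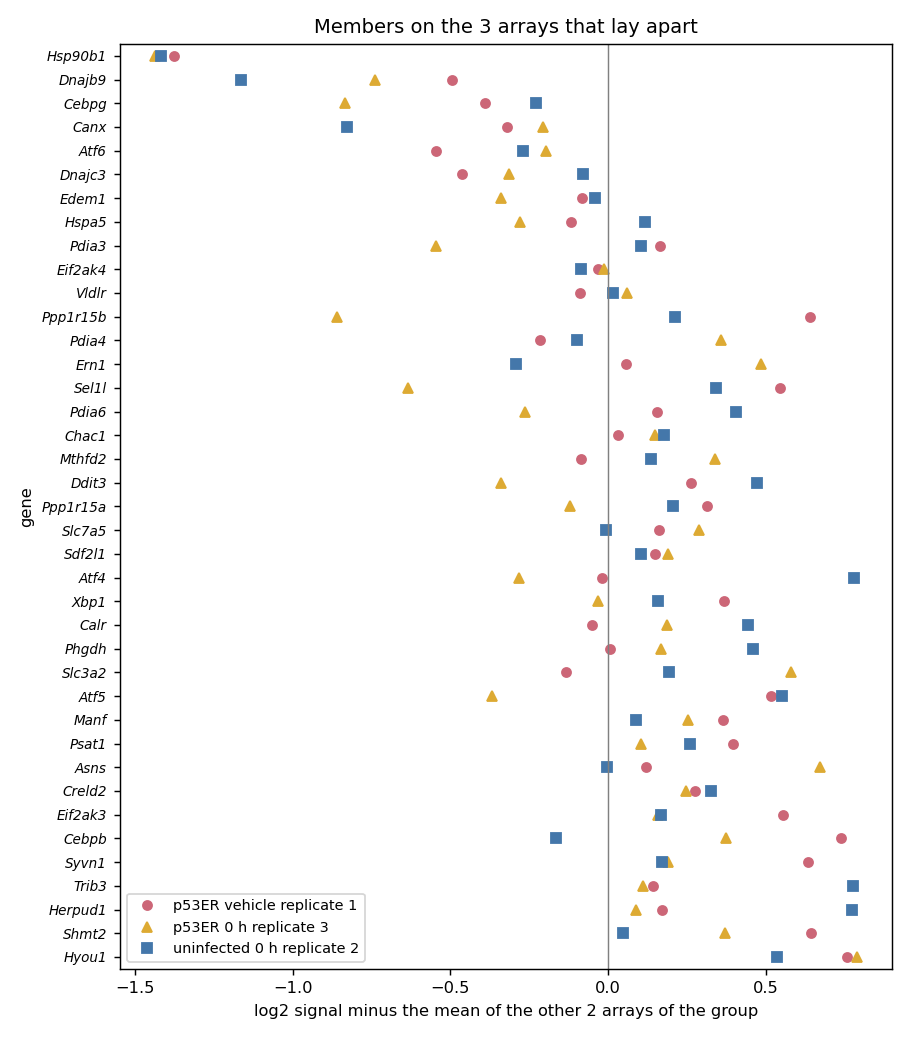
Log2 signal of each of the 39 genes on 3 arrays minus the mean of the other 2 arrays of the same group. Circles are p53ER vehicle replicate 1, triangles p53ER 0 h replicate 3 and squares uninfected 0 h replicate 2. Hsp90b1 lies between -1.38 and -1.44 on all 3, and Hyou1 between +0.54 and +0.79.

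When these 3 arrays were left out, the comparison of replicate numbers also called Hsp90b1 at -0.45 (limma adjusted p = 0.000562), Dnajb9 at -0.66, Herpud1 at +0.58, Creld2 at +0.39 and Manf at +0.20, and no longer called Pdia4 and Pdia6. Hsp90b1 stood at 9.87 to 10.01 on the 5 other arrays of replicate 3. With all 18 arrays, the other probe set of Herpud1 differed by -0.05 (SE 0.10), so its direction depends on the probe set. The one used averaged 8.44 on replicate 3 and 8.39 on replicates 1 and 2 in p53ER cells, and 8.49 and 7.78 in uninfected cells. With 4-OHT against vehicle in p53ER cells, none of the 39 passed without the 3 arrays.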

How the data were processed

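The deposited table holds linear signal intensities of 45101 probe sets on 18 arrays, which the authors made with MAS5 (no version given), per the submitters' processing notes. Probe sets were named from the platform annotation, updated by Entrez ID. Each array was scaled to a 2% trimmed mean of 82.7, an offset of 4.13 (5% of it) was added and log2 taken, so that folds of dim genes are understated. Each gene was represented by its brightest probe set. The 60% of genes with the highest mean were tested, 10916 in number, the lowest mean being 4.74.

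All 18 arrays entered 1 limma fit with a mean per group (6 groups, 12 residual degrees of freedom) and robust, intensity-trended variance moderation. Tests were two-sided, with Benjamini-Hochberg adjustment across the genes tested and a threshold of 0.05. The replicate comparison added the replicate number to the group means. An exact permutation of 3 against 3 arrays cannot go below a two-sided p of 0.1, so calls of single genes draw on the variance pooled across genes. The steps were checked on simulated data with known changes.

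The 39 genes, their 7 roles, the 4 further lists (86 genes, 82 on the array, 80 tested) and the tests were chosen with earlier results of these data known. Values by array, or the lowest, median and highest of larger sets, are given for genes past the threshold and, per role, for the gene with the largest change with 4-OHT in p53ER cells, with time and by replicate number. Further pathway genes were named as up to 4 per list past the threshold, or the 2 with the largest change. The promoter stretches with the ER stress response element were picked for display after the matches were seen. Some genes are not analysed here.

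Deviations from the group means correlated above 0.1 for every same-numbered pair of 4-OHT and vehicle. The correlations were 0.21 to 0.45 in p53ER cells and 0.31 to 0.62 in uninfected cells. For 4-OHT and 0 h in p53ER cells they were 0.27 to 0.47. For 14 of the 18 arrays the highest correlation of deviations was with an array of the same number. Because 21.2% of genes differed between replicate 3 and replicates 1 and 2, these values alone do not show that the numbers pair the arrays. For vehicle and 0 h not every pair correlated above 0.1 (lowest -0.08). The alternatives were no offset, a larger offset (16.5), quantile normalization, no filter and a filter keeping the upper 40%, the replicate number as a block, averaged probe sets, only the groups compared, a plain variance prior, array weights and leaving out each array. Leaving out the 3 arrays apart or replicate 3 was chosen with results known. R 4.3.3, limma 3.58.1, statmod 1.5.0, pandas 2.3.3 and matplotlib 3.10.9 were used.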

Additional observations from a re-analysis of the deposited data

How the results depend on the processing

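In the 8 comparisons of treatment, time and cell type, 0 of the 39 genes passed under each alternative run, the replicate block included. The median change of the 39 moved by more than its spread between arrays in a few. For p53ER cells with 4-OHT against vehicle it was 0.0543 without the 3 arrays that lay apart and -0.10 with replicates 1 and 2 only, and -0.0921 to 0.0543 when single arrays were left out (-0.02 in all). For the difference of the 4-OHT effects it was +0.11 without the 3 arrays, and -0.10 to +0.11 without single arrays. For vehicle against 0 h in p53ER cells it was 0.062 with replicates 1 and 2 only, and -0.0479 to 0.0668 without single arrays. The cause was not tested.

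Between replicate numbers, Sel1l, Atf5, Ppp1r15b, Mthfd2 and Slc7a5 passed in all 27 alternatives and Ern1 in 23, Pdia6 in 15, Xbp1 in 14 and Pdia4 in 8. Ddit3 and Pdia3 were lost only with the mean over probe sets, at -0.19 (limma adjusted p = 0.550) and -0.16 (0.244), where a dimmer probe set enters the mean. Leaving out single arrays gave 7 to 13 genes, with 7 without p53ER 4-OHT replicate 3. For the replicate 3 difference between cell types, 2 of the 39 passed with array weights, Ern1 at +0.84 (limma adjusted p = 0.0238) and Phgdh at -0.42 (0.0377), with a median of -0.0921, and 1, Phgdh at -0.63 (0.0166), without the 3 arrays.

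Over all genes, p53ER cells with 4-OHT against vehicle gave 2 genes, 8 with the replicate block, 0 to 5 without single arrays and 0 with only the groups compared. The replicate comparison gave 1767 to 2611 without single arrays. The time comparison gave 2 genes, 65 with the replicate block. With 3 arrays a group, and no pairing of the arrays shown, small changes of single genes were beyond the reach of these data.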
